A study of Mus musculus with 24 samples.

Results

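Cux2-only early regions are stretches of open chromatin that were listed in the neurons of the Cux2 lineage during the perinatal weeks and in no other list of the series. They were selected on presence alone. Overlapping peaks of all 12 peak lists were merged into 85867 regions, and a region was kept when at least 2 of the 4 early Cux2 lists (E18.5, P1, P3 and P7) held it, while neither late Cux2 list (P21 and P48) and none of the 6 Tle4 lists did. This left 7987 regions, 9.30% of all merged regions. Since the rule reads the lists, the number of regions, their ages and their peak strength are given as descriptions.

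The study mapped accessible chromatin in mouse cortical pyramidal neurons by ATAC-seq, an assay that cuts and tags open DNA with a transposase. Neurons were taken from Cux2-CreERT2:Ai14 mice (callosal projection neurons of the upper layers, Cux2 CPNs) or from Tle4-2A-CreERT2:Ai14 mice (corticothalamic projection neurons of the deepest layer, Tle4 CThPNs), with the strain given as C57BL/6 in the labels and as a mixed C57BL/6J background in the study's methods. In both lines the inducible Cre recombinase was activated before birth by 4-hydroxytamoxifen given to the mother, so that cells with Cre activity at that moment switched on the red reporter tdTomato for good, and labelled cells were sorted from the somatosensory and motor cortex at E18.5, P1, P3, P7, P21 or P48. Each library pooled several animals of both sexes, each class and age had 2 libraries, and the authors joined these into 1 list, so the values carry no replicate error and the reads behind each list were not analysed here (the methods give the same nominal depth for every ATAC-seq library). The peaks of the Cux2 lists, but not those of the Tle4 lists, have a version mark in their names, and effects of neuron class and of processing version cannot be told apart.

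Callosal neurons of the upper layers are the last large group of pyramidal neurons to be born. Around birth they are still migrating, extending axons towards the other hemisphere and starting to form dendrites, and these steps are controlled largely through enhancers, which are distal stretches of open DNA that hold short motifs for transcription factors. In this lineage the known factors include the CUT homeodomain proteins CUX1 and CUX2, the LIM homeodomain protein LHX2, the POU homeodomain proteins BRN1 and BRN2, SOX proteins and basic helix-loop-helix proteins of the NEUROD class.

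The 5 leading regions are shown as reference sequence of NCBIM37 (mm9, plus strand), each reaching 100 bp to either side of the summit of the strongest peak. Their fold enrichments, turned into percentile ranks within each early Cux2 list, had the highest means over the 4 lists, and they show what the motif shares below were counted on. Capitals mark the homeodomain core TAATTA, the POU elements ATGCAAAT and ATGCAT, the SOX elements ACAAAG and ATTGTT and the E-box CAGCTG, on either strand. The windows are chr8:45615133-45615333 (intergenic, 420007 bp from the nearest protein-coding start site, that of Fat1), chr7:27944987-27945187 (promoter of Egln2), chr3:133160004-133160204 (intron, 8103 bp from a start site of Tet2), chr2:43718017-43718217 (intron, 96888 bp from Arhgap15) and chr11:79550255-79550455 (intergenic, 75472 bp from Rab11fip4).
Fat1 window: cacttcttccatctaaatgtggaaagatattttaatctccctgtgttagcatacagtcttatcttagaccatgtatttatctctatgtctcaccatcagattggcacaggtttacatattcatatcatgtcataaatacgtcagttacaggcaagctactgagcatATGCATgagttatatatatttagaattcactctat
Egln2 window: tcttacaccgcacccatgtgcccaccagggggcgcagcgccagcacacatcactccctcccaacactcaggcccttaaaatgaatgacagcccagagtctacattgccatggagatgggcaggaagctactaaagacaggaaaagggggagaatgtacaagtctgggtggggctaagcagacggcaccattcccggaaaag
Tet2 window: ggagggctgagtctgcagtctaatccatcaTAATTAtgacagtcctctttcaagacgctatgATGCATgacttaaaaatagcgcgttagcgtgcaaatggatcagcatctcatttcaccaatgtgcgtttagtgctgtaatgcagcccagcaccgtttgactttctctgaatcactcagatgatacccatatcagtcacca
Arhgap15 window: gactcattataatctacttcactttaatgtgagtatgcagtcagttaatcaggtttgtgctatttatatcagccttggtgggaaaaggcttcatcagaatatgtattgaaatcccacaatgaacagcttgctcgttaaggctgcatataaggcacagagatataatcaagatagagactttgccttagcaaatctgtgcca
Rab11fip4 window: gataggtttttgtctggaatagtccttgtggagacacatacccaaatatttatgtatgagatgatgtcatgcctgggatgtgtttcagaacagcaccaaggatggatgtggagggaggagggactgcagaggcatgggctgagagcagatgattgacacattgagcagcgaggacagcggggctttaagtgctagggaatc

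The Fat1 window holds ATGCAT, the Tet2 window holds ATGCAT and TAATTA, and the other 3 hold none of the 6 motifs. The region that contains the Fat1 window (chr8:45614555-45615555) had fold enrichments over background of 18.8 at E18.5, 18.2 at P1, 17.1 at P3 and 13.6 at P7. That of Egln2 (chr7:27944908-27945370), a gene for an oxygen-sensing prolyl hydroxylase, had 15.9, 16.7, 18.1 and 16.8. That of Tet2 (chr3:133159738-133160581), a gene for an enzyme that oxidises methylated cytosine, had 18.8, 16.4, 15.8 and 14.4. All 3 were held at every early age with fold enrichments in the upper part of each list. The Tet2 and Fat1 regions had their highest fold enrichment at E18.5 and their lowest at P7. Their percentile ranks within the lists, from E18.5 to P7, were 97.1, 88.1, 92.1 and 93.7 for Tet2. For Fat1 they were 97.2, 92.7, 94.9 and 91.5, so by rank Tet2 was lowest at P1.

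The next leading regions lay at chr18:70987856-70988577 (210429 bp from Mbd2), chr9:84751753-84752445, chr4:68256112-68256785 (233607 bp from Dbc1), chr15:35431840-35432734 (intron, 73477 bp from Vps13b) and chr12:28354325-28355277. The last of these was 326751 bp from Sox11, which encodes a SOX protein of immature neurons, and its fold enrichment was 20.8 at E18.5, 17.9 at P1, 14.8 at P3 and 11.9 at P7. Of the 10 leading regions, that of Egln2 was the only one at a promoter. The leading regions within 1 kb of a protein-coding start site were those of Egln2, 1700025K23Rik (chr10:38841198-38841638), Lama2 (chr10:26823459-26824216), Tceanc (chrX:162947976-162948773) and A930003A15Rik (chr16:19884036-19884701). Lama2 encodes a laminin chain of the basement membrane, and its region had fold enrichments of 12.8, 14.0, 13.1 and 12.5 from E18.5 to P7. Its percentile ranks within these lists were 79.0, 78.6, 82.4 and 87.6, highest at P7.

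The P3 list held most of the regions (6442, 80.7%), followed by E18.5 (6102, 76.4%), P1 (4552, 57.0%) and P7 (4167, 52.2%). Regions seen at only some ages were common, since 4049 (50.7%) were in exactly 2 lists, 2587 (32.4%) in 3 and 1351 (16.9%) in all 4. The most frequent combinations were E18.5 with P1 and P3 (1420 regions), all 4 ages (1351), E18.5 with P3 (1294) and P3 with P7 (1025), and the rarest was P1 with P7 (112). Runs of neighbouring ages therefore made up most of the set, but E18.5 with P3 skips P1, whose list was the shortest of the 4 early Cux2 lists. Of the 1351 regions in all 4 lists, 632 (46.8%) had their highest percentile rank of fold enrichment at E18.5 against 328 at P3, 260 at P7 and 131 (9.70%) at P1. The lowest rank was at P7 in 475 (35.2%) and at P1 in 439 (32.5%), so the ranks did not fall steadily with age.

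**Figure D1:**
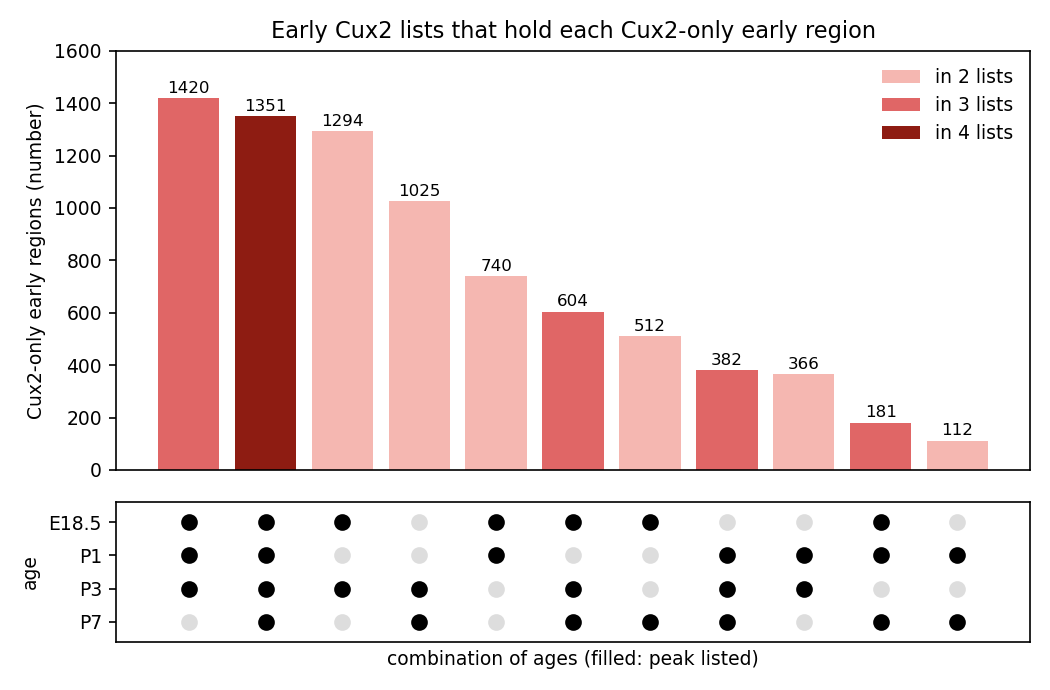
Number of Cux2-only early regions (vertical axis) for each combination of early ages at which a peak was listed (filled circles below), shaded by the number of lists. The tallest bars are E18.5 with P1 and P3 (1420) and all 4 ages (1351), and the combination of P1 and P7 is the shortest (112).

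Within their own lists the regions were of moderate strength. The median fold enrichment was 9.35 at E18.5, 9.60 at P1, 9.14 at P3 and 8.35 at P7, against 9.69, 11.2, 9.94 and 8.89 for the other regions of the same lists, and the interquartile ranges overlapped at every age. The median −log10 p of the regions was 18.3, 17.2, 18.7 and 16.0. Regions held at all 4 ages were stronger, with medians of 23.7, 20.0, 24.0 and 17.5.

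How a list ends matters for these regions, because absence from a list means only that no peak passed its limit. The lowest −log10 p of the Tle4 lists ran from 14.5 (E18.5) to 22.0 (P3), while the early Cux2 lists reached down to between 11.4 and 13.8. The highest −log10 p of a region had a median of 21.01 (interquartile range 17.3 to 27.1). It was under 22.0, the highest limit of any list, in 4393 regions (55.0%), so a peak with their −log10 p would fall below the end of the Tle4 list of P3. It was under the lowest Tle4 limit in 431 (5.40%), and above the limits of both late Cux2 lists in 7667 (96.0%). With 1 common limit of 22.0 in all 12 lists, 2020 regions met the rule, and with lists of equal length (the 6538 strongest peaks of each) 1102 did.

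**Figure D2:**
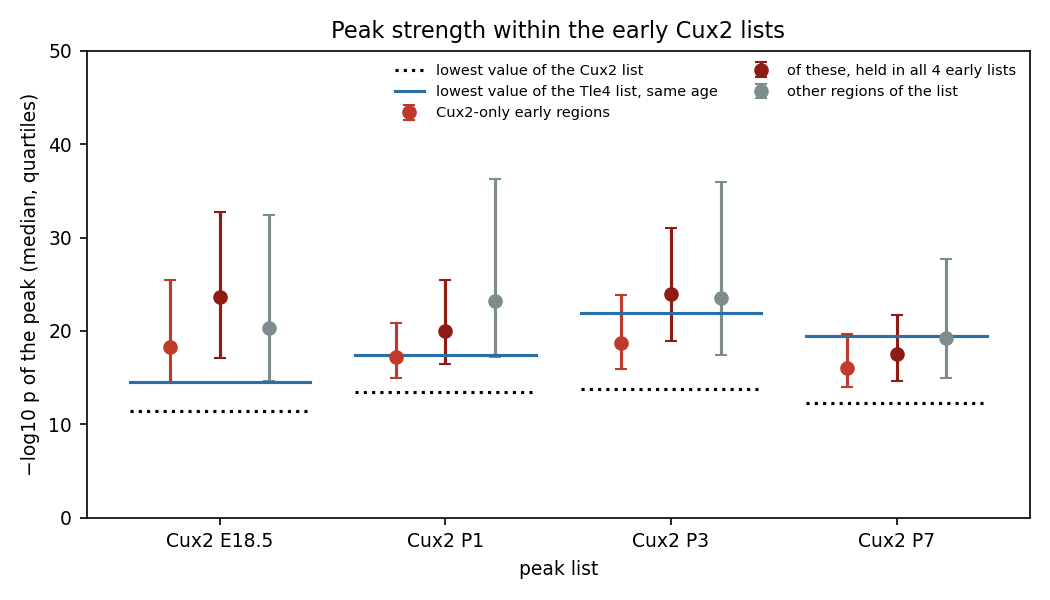
−log10 p of peaks in the 4 early Cux2 lists (vertical axis), as median with quartiles, for Cux2-only early regions, for those of them held in all 4 lists, and for the other regions of the list. Dotted and blue lines mark where the Cux2 list and the Tle4 list of the same age end, and the median of the Cux2-only early regions lies below the Tle4 limit at P1, P3 and P7.

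Just inside the rule, the 4049 regions in exactly 2 early lists had a median highest −log10 p of 18.3. Just outside it, 12356 regions were in 1 early Cux2 list and no other list, with a median of 14.8, and 1227 had the required early peaks but also a peak in 1 Tle4 list, with a median of 24.7. Another 1686 regions were kept out by a peak in 1 late Cux2 list (median 22.2) and 2040 by a peak in both (median 30.5). Peaks of the Tle4 and late Cux2 lists within 1 kb and 10 kb were counted for the Cux2-only early regions alone. Their shares therefore have no comparison set. Of the 7987 regions, 209 (2.62%) lay within 1 kb of a region of any Tle4 list and 387 (4.85%) within 1 kb of a region of a late Cux2 list. Within 10 kb the numbers were 1923 (24.1%) and 2876 (36.0%).

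Most Cux2-only early regions lay away from promoters. Of the 7987, 888 (11.1%, 95% Wilson interval 10.4 to 11.8, counting error only) were within 1 kb of an annotated start site, 2901 (36.3%) lay in introns, 397 (4.97%) touched an exon and 3801 (47.6%) were intergenic. The median distance to a start site was 24174 bp (interquartile range 6762 to 72047), and 2657 regions (33.3%) were more than 50 kb from any. The promoter share was 12.4% among regions in exactly 2 lists (interval 11.4 to 13.4), 10.2% in 3 (9.13 to 11.5) and 8.96% in all 4 (7.55 to 10.6). By comparison 3.44% of the 3718 Tle4-only early regions, chosen by the mirror rule, 5.41% of the 12362 Cux2-only late regions and 16.6% of all merged regions were promoters.

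Taken list by list, the promoter share of the Cux2-only early regions was 11.8% at E18.5, 10.6% at P1, 10.3% at P3 and 9.89% at P7. In the other regions of these lists it was 35.9%, 49.5%, 40.4% and 34.3%. The regions were lower at 4 of 4 ages, by a mean of 29.4 percentage points (difference -29.4, p = 0.13 by an exact two-sided permutation of signs, the smallest that 4 lists allow). This comparison is not independent of the rule. Any region shared with a Tle4 or late Cux2 list, such as a promoter open in all lists, counts among the other regions. The difference was -47.9 at the common limit and -46.6 at equal list length, where the mean share of the Cux2-only early regions was 7.94% and 24.5%. The mirror set in the Tle4 lists of the same ages had promoter shares of 3.26%, 3.49%, 3.35% and 3.11%. The Cux2-only regions were higher at 4 of 4 ages, by 6.77 to 8.59 percentage points and on average by 7.37 (p = 0.13 by the same exact permutation test, the smallest possible). This difference depended on where the lists end, as it was 2.00 percentage points at the common limit (exact permutation p = 0.13) and 15.5 at equal length (exact permutation p = 0.13). A region held by several lists enters each of them, so the 4 lists are not independent.

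The DNA of the regions was fairly rich in A and T. Within 100 bp of the summit the median GC content was 43.3% (interquartile range 38.8 to 48.3), and the CpG observed/expected ratio was 0.271, against 0.170 in Tle4-only early and 0.193 in Cux2-only late regions. Regions with GC content above 50% and a CpG ratio above 0.6 made up 7.12% of the set (interval 6.58 to 7.71), 0.834% of Tle4-only early regions and 1.05% of Cux2-only late regions. Promoters accounted for many of these, since 45.9% of the 888 promoter regions were CpG-rich by this measure but 2.27% of the regions elsewhere. Over all merged regions the share was 11.7%, and in regions shared by early lists of both classes 29.5%. Within the lists, the median GC content of the regions was 43.8%, 42.8%, 42.8% and 42.8% from E18.5 to P7, against 49.8%, 54.2%, 50.7% and 48.8% in the other regions. The mean difference was -7.84 percentage points, lower at 4 of 4 ages (p = 0.13 by the same exact permutation test, the smallest possible), and -2.99 when promoters were left out (exact permutation p = 0.13). At the common limit it was -13.2 and at equal list length -13.6. As with promoters, this comparison is not independent of the rule. Just outside the rule, the median GC content was 43.3% in regions of 1 early Cux2 list and no other. It was 44.8% in those with both late Cux2 peaks as well, 47.8% with 1 late peak and 47.3% with 1 Tle4 peak. Against the Tle4-only early regions the mean difference was -0.12 percentage points, with values from -0.50 to 0.50 over the ages (exact permutation p = 1), and at equal list length it was 1.62 with all 4 ages higher (exact permutation p = 0.13), so its direction depended on where the lists end. The median GC contents of these 2 sets were thus close while their CpG ratios were not, and Cux2-only late regions had a higher median GC content of 46.3%.

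Motifs were counted as exact letters on both strands within 100 bp of the summit, and a match describes the sequence, not a bound factor. The homeodomain core TAATTA, a palindrome read by LIM, DLX and many other homeodomain proteins, was in 878 of 7987 regions (11.0%, 95% Wilson interval 10.3 to 11.7). It was in 3.52% of Tle4-only early regions (2.98 to 4.17), 3.12% of Cux2-only late regions (2.83 to 3.44) and 5.09% of all regions. The POU element ATGCAAAT was in 385 regions (4.82%, 4.37 to 5.31), against 1.56% (1.21 to 2.01), 2.89% (2.61 to 3.20) and 2.98% in the same sets. The shorter ATGCAT, which can share letters with it, was in 11.3% of the regions (10.6 to 12.0), against 7.05%, 6.95% and 7.31%. These 3 homeodomain elements were thus more frequent in the Cux2-only early regions than in any of the 3 other sets, with intervals that did not overlap. ATGCAAAT was as frequent where peaks lasted, in 4.99% (4.34 to 5.74) of regions with early and late Cux2 peaks and no Tle4 peak. Outside promoters and at a GC content of 40 to 45%, its shares came closer, at 4.52% of Cux2-only early, 3.94% of Cux2-only late and 3.69% of all regions, against 1.35% of Tle4-only early regions.

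The E-box CAGCTG, a palindrome read by basic helix-loop-helix proteins, was in 1535 regions (19.2%, 18.4 to 20.1), against 9.25% of Tle4-only early, 17.0% of Cux2-only late and 15.3% of all regions. The E-box CAGATG, preferred by NEUROD and NEUROG proteins, was in 25.4% of the regions (24.5 to 26.4), close to the 25.5% of all regions, with 21.7% in Tle4-only early and 31.0% in Cux2-only late regions. At equal list length the order of Cux2-only early and Tle4-only early regions turned, at 21.9% and 25.2%. The SOX element ACAAAG was in 16.8% (16.0 to 17.6), against 7.58%, 15.8% and 13.6%, and the SOX element ATTGTT in 11.2% (10.5 to 11.9), against 3.44%, 8.48% and 7.50%. The letters of these SOX elements can overlap where they meet.

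Further elements had shares near or below those of some other sets. The nuclear factor I element TTGGCA was in 14.2% (13.5 to 15.0), against 29.1% of Tle4-only early regions (27.7 to 30.6), 14.6% of Cux2-only late regions and 16.7% of all regions. It was still above its flank share of 10.6%, and above its share in the other regions of the list at P1 (14.7% against 11.8%), P3 (13.5% against 12.1%) and P7 (14.0% against 12.4%), but not at E18.5 (15.1% against 15.9%). These other regions held more promoters. Outside promoters, TTGGCA was in 15.0% of Cux2-only early regions, below the 18.2% of all regions. The AP-1 element TGANTCA, read by FOS and JUN dimers that follow neuronal activity, was in 5.82% (5.33 to 6.36), the same as the 5.86% of Tle4-only early regions within their intervals, but in 31.1% of Cux2-only late regions (30.3 to 31.9) and 13.7% of all regions. The CUX element ATCGAT was in 16 regions (0.200%, 0.123 to 0.325), against 0.941% of Tle4-only early, 0.138% of Cux2-only late and 0.362% of all regions. GGGCGG, the box of SP and KLF proteins, was in 7.05% of the regions, in 1.61% of Tle4-only early and in 11.3% of all regions, and it was in 37.8% of the 888 promoter regions. At the common limit its shares in Cux2-only early and Tle4-only early regions met (4.16% and 4.21%), and at equal list length they were 16.0% and 6.60%. For the remaining motifs the Cux2-only early and Tle4-only early regions differed by less than 3 percentage points. The T-box element AGGTGTG was in 1.00% of Cux2-only early, 1.29% of Tle4-only early and 4.37% of Cux2-only late regions, and the EGR element GTGGGCG in 1.502%, 0.242% and 3.67%. The MEF2 element was in 4.53%, 6.21% and 5.11%, the palindromic nuclear factor I element in 5.30%, 8.10% and 8.34%, and the RFX element GTTGCC in 8.70%, 9.52% and 6.88%. The CTCF core CCANNAGGG was in 4.03%, 2.93% and 2.64%, while the cyclic AMP element TGACGTCA and the NRF1 element GCGCATGC were in under 1% of each of these sets. Of the 19 motifs searched, the intervals of Cux2-only early and Tle4-only early regions lay apart for 16, and for 10 at the common limit and 8 at equal list length. The POU element ATGCAT and the CUX element ATCGAT were among those whose intervals overlapped at equal length.

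**Figure D3:**
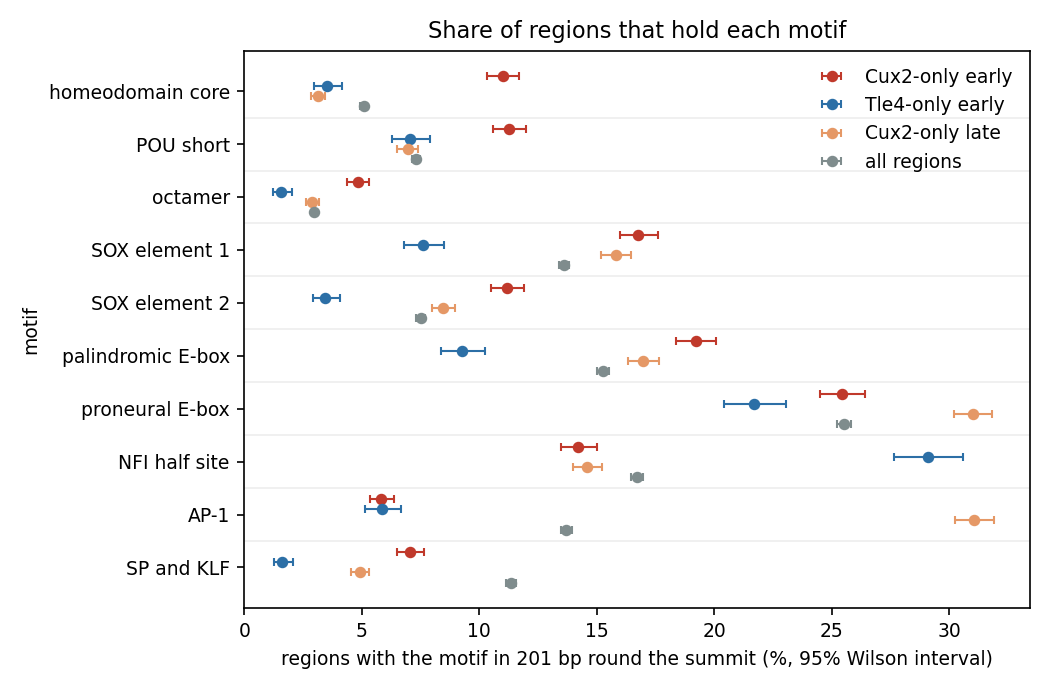
Share of regions with each of 10 motifs within 100 bp of the summit (horizontal axis, percent, with 95% Wilson intervals) in Cux2-only early, Tle4-only early, Cux2-only late and all regions. The homeodomain core (11.0%), POU short (11.3%) and octamer (4.82%) shares of the Cux2-only early regions exceed those of the other sets, the NFI share stands out in Tle4-only early regions (29.1%) and the AP-1 share in Cux2-only late regions (31.1%).

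Base composition and promoters were held in view for TAATTA. Outside promoters and at a GC content of 40 to 45%, it was in 10.9% of 2079 Cux2-only early regions, 3.77% of 1115 Tle4-only early regions and 3.97% of 3197 Cux2-only late regions. In flanks 200 to 400 bp from the summit its share was 7.68% in Cux2-only early and 7.72% in Tle4-only early regions, so the sets were alike there and parted at the summit. At the common limit TAATTA was in 14.5% of the Cux2-only early regions against 3.40%, and at equal list length in 9.80% against 2.99%. CAGCTG was in 23.4% against 9.52% and in 21.2% against 8.57%, and TTGGCA in 16.0% against 26.1% and in 14.5% against 25.9%, so the order held in each case.

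Positions relative to the summit differed between the elements. TAATTA occurred 35.2 times per 1000 Cux2-only early regions in a bin of 50 bp next to the summit and 19.5 times at 400 to 500 bp, a ratio of 1.80. In Tle4-only early and Cux2-only late regions it was rarer at the summit than at that distance, with ratios of 0.348 and 0.438. ATGCAAAT had a ratio of 4.43 in the Cux2-only early regions, ATGCAT 1.85 and CAGCTG 2.93, so these elements gathered at the summits. In Cux2-only late regions their ratios were 2.21, 1.03 and 2.34, and in Tle4-only early regions 0.807, 0.764 and 1.29. Gathering of ATGCAAAT and CAGCTG was thus not particular to the early regions. The SOX elements did not gather at the summits. ATTGTT had a ratio of 0.832 in the Cux2-only early regions, 0.604 in Cux2-only late and 0.188 in Tle4-only early regions, and ACAAAG had 0.939, 0.821 and 0.354. Their higher shares in the Cux2-only early regions therefore went with a smaller dip at the summit rather than with a peak there. AP-1 elements had a ratio of 1.04 in the Cux2-only early regions and 7.33 in the late ones.

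**Figure D4:**
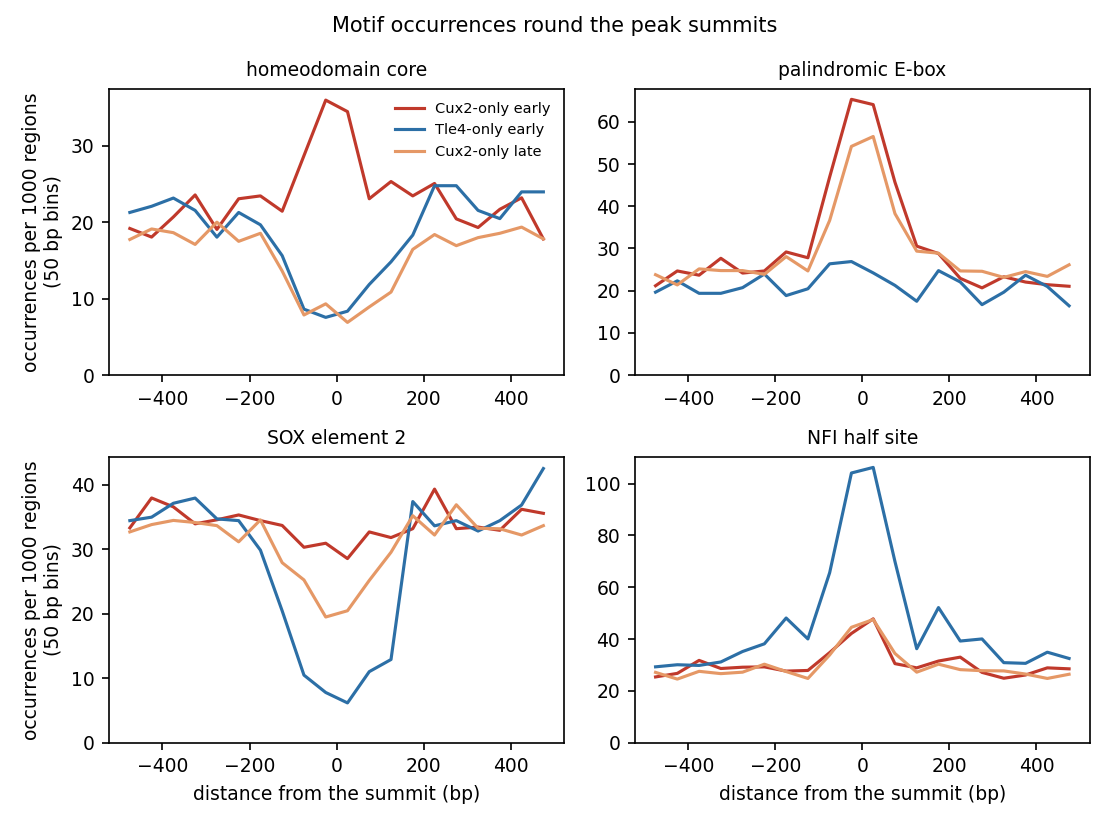
Occurrences of 4 motifs per 1000 regions in bins of 50 bp (vertical axes, from 0) by distance from the peak summit in bp (horizontal axes), for Cux2-only early, Tle4-only early and Cux2-only late regions. The homeodomain core peaks at the summits of Cux2-only early regions (35.2 per 1000) and dips in the other sets, while the SOX element shows no peak in any set and the NFI element is highest in Tle4-only early regions (105).

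The motif shares also varied within the set. In the 2160 regions held at E18.5 and P1 but not at P7, CAGCTG was in 24.0% (22.2 to 25.8) and TAATTA in 12.7% (11.4 to 14.2). In the 1407 regions held at P3 and P7 but not at E18.5 they were in 12.7% (11.0 to 14.5) and 8.10% (6.79 to 9.64). ATTGTT did not separate these groups, at 11.1% (9.85 to 12.5) and 10.6% (9.09 to 12.3). Strong regions held more homeodomain cores, with TAATTA in 13.9% (12.8 to 15.1) of the 3594 regions above the common limit and in 8.63% (7.83 to 9.49) of the 4393 below it. It was in 11.9% of regions outside promoters and in 3.49% (2.47 to 4.91) of promoters. Across the edge of the rule, TAATTA was in 10.3% (9.78 to 10.9) of the 12356 regions in 1 early Cux2 list only, but in 5.77% (5.07 to 6.57) of the 3726 regions with early and late Cux2 peaks and no Tle4 peak. The intervals of CAGCTG and ACAAAG overlapped those of the Cux2-only early regions, as CAGCTG was in 17.9% (16.7 to 19.2) and ACAAAG in 16.6% (15.5 to 17.8) of the regions with early and late peaks. In each early list the share of TAATTA was higher in the Cux2-only early regions than in the other regions, at 12.0% against 5.69% (E18.5), 11.2% against 3.18% (P1), 11.4% against 3.97% (P3) and 9.58% against 3.71% (P7).

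Neighbouring genes were counted as protein-coding genes with a region within 100 kb of a start site, a distance that says nothing of which gene a region acts on. Of 22225 genes, 10610 (47.7%) had at least 1 Cux2-only early region, 16.8% had a Tle4-only early region and 56.4% a Cux2-only late region. The genes with most Cux2-only early regions were Dlgap2 (11), which encodes a protein of the postsynaptic density, Pde4d (9), a phosphodiesterase for cyclic AMP, and Nrxn3, Phactr1 and Rapgef4 (8 each), which encode a presynaptic adhesion molecule, an actin regulator and an exchange factor driven by cyclic AMP. Ccdc67, Cdk14, Odz3 (a teneurin adhesion molecule), Pam (the enzyme that amidates peptides) and Tspan5 (a tetraspanin) had 7 each. Most of these are long genes with many start sites, and they also have many regions in general. Cux2-only early regions made up 11.7% of all regions near Pde4d, 21.6% near Dlgap2, 32.0% near Rapgef4 and 50.0% near Ccdc67, against 8.05% over all genes. The genes were chosen for their number of such regions, so shares above that of all genes follow in part from the choice. No Tle4-only early region lay near Rapgef4, Cdk14, Pam or Tspan5, while 3 lay near Dlgap2 and 7 near Pde4d.

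The region with the highest fold enrichment near each of the first 2 of these genes shows what such intronic sites look like. The windows are chr8:14654474-14654674 (intron of Dlgap2) and chr13:110484623-110484823 (intron of Pde4d), in NCBIM37 with capitals as above.
Dlgap2 window: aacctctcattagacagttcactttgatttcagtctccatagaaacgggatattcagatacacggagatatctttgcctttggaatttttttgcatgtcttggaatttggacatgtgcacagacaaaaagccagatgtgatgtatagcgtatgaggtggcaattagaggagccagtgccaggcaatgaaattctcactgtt
Pde4d window: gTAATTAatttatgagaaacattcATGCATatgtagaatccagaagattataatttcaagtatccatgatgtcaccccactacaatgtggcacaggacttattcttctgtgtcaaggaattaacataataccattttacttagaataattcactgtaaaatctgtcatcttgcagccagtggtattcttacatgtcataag

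The Dlgap2 region (chr8:14654098-14654962) was held at every early age, with fold enrichments of 15.6 at E18.5, 12.4 at P1, 10.4 at P3 and 7.47 at P7, and its window holds none of the 6 motifs. The Pde4d region (chr13:110484134-110485027) was held at E18.5 (fold enrichment 14.7) and P7 (7.14) only, and its window holds TAATTA and ATGCAT. Of the 11 regions near Dlgap2, 10 lay in its introns and 1 beyond its end, spread along much of the gene.

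Upper-layer and callosal neuron genes often had Cux2-only early regions nearby, 13 of 16 against the 47.7% of all genes. Cux1 had 6 and Cux2 had 5. No Tle4-only early region lay near either, as for most genes, since 16.8% of all genes had one. Bhlhe22, a basic helix-loop-helix repressor, and Inhba, a subunit of activin, had 3 each, and Lhx2 had 2. Tle4-only early regions lay near 4 of the 16 (25%, against 16.8% of all genes) and Cux2-only late regions near 14 (87.5%, against 56.4%). In total 13.4% of all regions near these genes were Cux2-only early, against 8.05% over all protein-coding genes. These genes also had more regions of any kind, with a median of 12.5 against 9. The count fell with the number of regions, to 5 of 16 (31.3%) against 14.2% of all genes at the common limit and to 2 of 16 (12.5%) against 12.1% at equal list length, where the difference was lost.

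The regions of Cux1 and Cux2, which encode the CUT homeodomain proteins of the upper layers, lay within and before both genes on chromosome 5. At Cux1 the region at chr5:136987196-136987753, 55.8 kb into the gene, was held at all 4 ages with fold enrichments of 11.1, 10.1, 9.93 and 7.81. The region at chr5:137070729-137071295, 27.7 kb before the gene's start, had fold enrichments of 15.0, 10.8 and 14.6 from E18.5 to P3 and no listed peak at P7. At Cux2 the intronic region at chr5:122354677-122355217 was held at all 4 ages with 13.0, 11.8, 8.56 and 9.59. The regions at chr5:136858107-136858756 in Cux1 (12.5, 8.59 and 8.76 from E18.5 to P3) and chr5:122374405-122374847 at an internal start site of Cux2 (9.61 at E18.5 and 9.23 at P1) are shown because their windows hold the homeodomain core. This choice was made after their sequences were seen. The windows are chr5:136858202-136858402 and chr5:122374532-122374732.
Cux1 window: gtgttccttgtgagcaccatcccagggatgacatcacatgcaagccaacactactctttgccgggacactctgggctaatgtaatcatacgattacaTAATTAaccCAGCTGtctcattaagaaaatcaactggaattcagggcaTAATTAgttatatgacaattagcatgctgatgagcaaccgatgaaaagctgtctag
Cux2 window: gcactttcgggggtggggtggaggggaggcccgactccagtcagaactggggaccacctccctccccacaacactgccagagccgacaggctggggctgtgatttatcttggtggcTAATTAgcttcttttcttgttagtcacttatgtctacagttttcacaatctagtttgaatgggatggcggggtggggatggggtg

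The Cux1 window holds TAATTA and CAGCTG, and the Cux2 window holds TAATTA. Of the other 9 regions near these genes, none has TAATTA in its window.

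**Figure D5:**
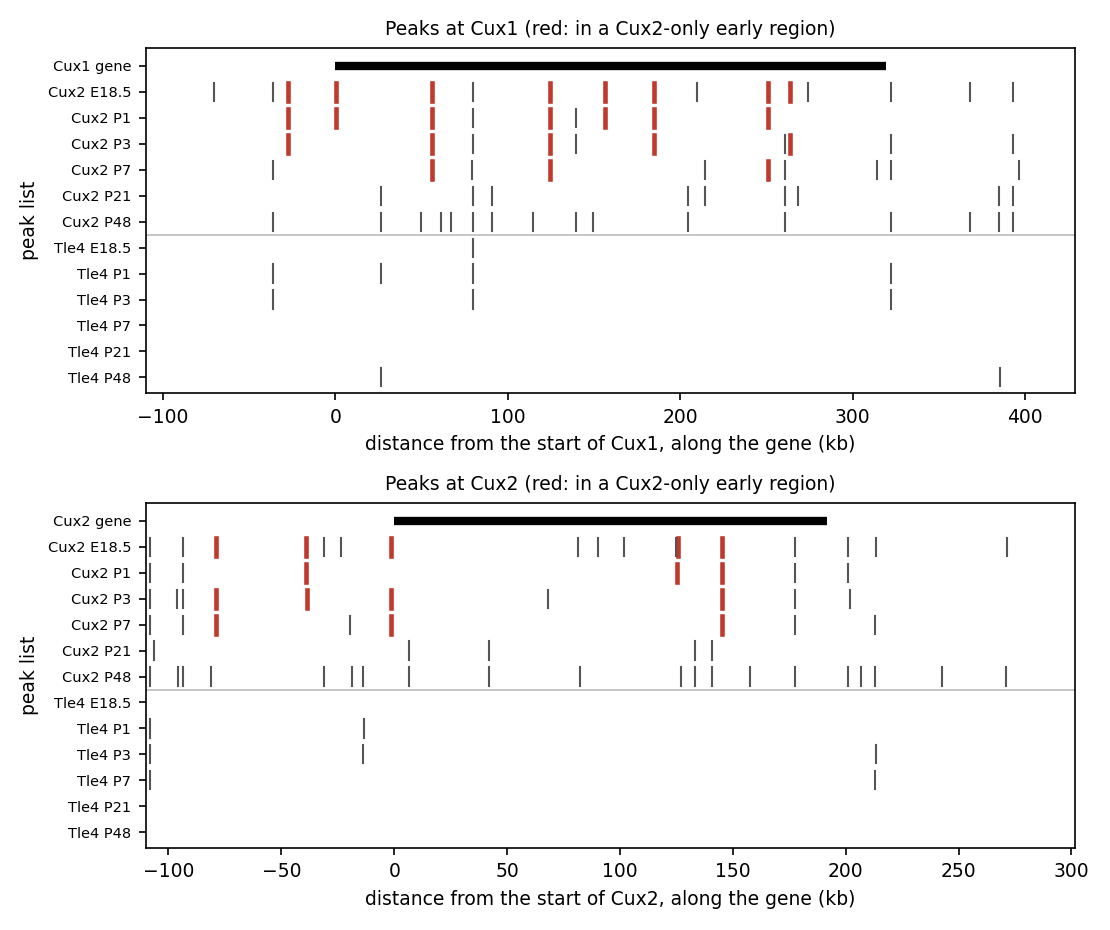
Peaks of the 12 lists (rows) at Cux1 and Cux2, by distance from the gene's start along the gene in kb, with the gene as a black bar. Red marks belong to Cux2-only early regions, of which 8 are drawn at Cux1 (6 of them within 100 kb of a start site) and 5 at Cux2, all in the 4 upper rows by the rule that chose them.

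Deep-layer and corticofugal neuron genes had Cux2-only early regions near 9 of 17 (52.9%), close to the 47.7% of all genes. Tle4-only early regions lay near 9 of 17 as well, but against 16.8% of all genes. Bcl11b, which encodes a zinc finger factor of corticospinal neurons, had 3 Cux2-only and 0 Tle4-only early regions, Foxp2 had 2 and 0, and Fezf2 had 1 and 2. Cux2-only early regions made up 6.52% of all regions near these genes.

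Among axon guidance genes, 12 of 16 ligands (75%) and 20 of 28 receptors and adhesion molecules (71.4%) had a Cux2-only early region within 100 kb, against 47.7% of all genes. Ntng1, which encodes a membrane-bound netrin, had 3, and the secreted ligands Sema3a and Slit3 and the membrane-bound Sema7a had 2 each. Of the receptors and adhesion molecules, Dscam had 3, and Chl1, Cntn2, Ephb2 and L1cam had 2 each. Tle4-only early regions lay near 6 of the ligands (37.5%) and 11 of the receptors and adhesion molecules (39.3%), against 16.8% of all genes. The share of all regions near the genes that were Cux2-only early was 8.46% and 9.49%, little above the 8.05% over all genes.

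Immature projection neuron genes had a Cux2-only early region in 11 of 17 cases, against 47.7% of all genes, and such regions made up 8.64% of all regions near them, against 8.05%. Apc2, Bcl11a, Dpysl3 and Nfia had 3 each, and Gap43, which encodes a growth cone protein, had 2. Nfia, a nuclear factor I gene, also had 4 Tle4-only early regions. Synapse and mature neuron genes had a Cux2-only early region in 14 of 22 cases, with 2 each near Egr3, Fos, Gria2, Scn1a and Syp. Tle4-only early regions lay near 1 of the 22 (4.55%, against 16.8% of all genes) and Cux2-only late regions near 20 (90.9%, against 56.4%). Cux2-only early regions made up 6.05% of all regions near these genes, the lowest value of the 9 lists.

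Genes of other cell types were counted in the same way. Cortical progenitor genes had a Cux2-only early region in 7 of 13 cases (Ccnd2 and Sox2 with 3 each), interneuron genes in 8 of 11 (Lhx6 with 3, Dlx5, Dlx6 and Pvalb with 2 each) and glial and vascular genes in 13 of 22, against 47.7% of all genes. At 13.4%, the share of regions near interneuron genes that were Cux2-only early equalled that near upper-layer genes. Near progenitor genes it was 11.57% and near glial and vascular genes 10%, also above the 8.05% over all genes. Marker promoters were examined in the early Cux2 lists as a check of the sorted cells. Among the projection neuron markers, Neurod6 and Tle4 had a promoter peak in all 4 early Cux2 lists, Neurod2 in 3 and Cux2 in 2. Tle4 is itself a deep-layer gene. Of 5 interneuron markers, Lhx6 had one in 2 lists, Gad2, Dlx1 and Dlx2 in 1 each, and Gad1 in none, and none of the 5 had one in a Tle4 list. Of the progenitor markers Pax6 and Sox2 had one in 2 lists each, and Hes5 and Eomes had none. Gfap had one in all 4 lists and Olig1 in 1, while the other 3 astrocyte and 4 oligodendrocyte markers and all 8 microglial and endothelial markers had none. Promoter peaks of Cux2, Lhx6, Pax6 and Sox2 were themselves in Cux2-only early regions, and Cux2 also had promoter peaks in both late Cux2 lists. The study's methods state that the Cux2-CreERT2 line was reported to label some cortical interneurons too. From single-cell sequencing of both sorted classes, the authors judged that such interneurons affected their own results only minimally. What part cells other than callosal neurons have in the set was not tested.

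The regions were scattered. The median distance to the next Cux2-only early region was 88.4 kb, and 519 regions (6.50%) had another within 10 kb, against 6.54% of Tle4-only early and 16.1% of Cux2-only late regions. Among the chromosomes with regions, their share of all merged regions ran from 8.02% on chromosome 19 to 10.4% on chromosome 7, so no chromosome held a marked excess.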

How the data were processed

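ATAC-seq was run on 24 libraries, 2 for each of 12 groups (2 neuron classes at 6 ages). Per the study's methods and the labels, the authors aligned reads to NCBI37 (mm9) with Bowtie2, used Picard for duplicate reads and MACS2 for peak calling, and filtered peaks over the replicates by their irreproducible discovery rate. No shift for the transposase was stated, and tool versions are left out here. For each peak the deposited lists give the fold enrichment over background as a ratio and the −log10 p, both on the pooled replicates, so libraries have no values of their own. Of 292994 deposited peaks, 292934 on chromosomes 1 to 19, X and Y were used, and 60 mitochondrial peaks were left out.

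Peaks that overlapped by 1 bp or more were merged. Start sites (95458) came from GENCODE vM1, and sequence from NCBIM37. A promoter lay within 1 kb of a start site. Differences within lists were tested by exact sign flips over 4 lists. Shares carry 95% Wilson intervals, with no test. Python 3.11.15, pandas 2.3.3 and scipy 1.17.1 were used, and the code was tested on simulated data. The rule for regions, the gene and motif lists and the tests were chosen with earlier results of these data known. Sequences are shown only outside chromosome 18 and untranslated regions. Named were the 10 leading regions held in all 4 lists, 5 promoters, the 10 genes with most regions and up to 5 genes of each list. Of the 17 axon guidance ligands, 16 were found by name. The result for 1 projection neuron marker is not reported here.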

Additional observations from a re-analysis of the deposited data

How the results depend on the processing

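No paired analysis was possible because each deposited list pools both replicates of its group, so the replicate numbers have no values of their own. Reads and replicate agreement behind each list were not analysed here, and with 4 lists no p under 0.13 was possible (0.25 with 3). The number of regions was 2020 at the common limit, 1102 at equal length, 3938 when 3 early lists were required and 1351 when all 4 were, and 7994 when only overlaps of 100 bp merged peaks. Leaving out each list in turn gave 5302 (without the Cux2 list of P3) to 9115 (without that of P48), which follows in part from the rule, since fewer lists then meet or break it.

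The promoter difference to the other regions of a list kept its direction in every alternative run, but it is not independent of the rule. It ran from -26.0 to -30.8 percentage points with a list left out, and was -47.9 at the common limit and -46.6 at equal length. The promoter difference to Tle4-only early regions kept its direction too, but not its size. It ran from 5.97 to 9.61 with a list left out, and was 2.00 at the common limit and 15.5 at equal length. The GC difference to other regions ran from -6.80 to -8.62 with a list left out, and was -13.2 at the common limit and -13.6 at equal length. The GC difference to Tle4-only early regions had no stable direction, with 1.62 at equal length, -0.995 at the common limit, -0.87 outside promoters (chosen after seeing the data) and values from -1.16 to 0.498 with a list left out. The number of motifs whose intervals lay apart between Cux2-only early and Tle4-only early regions was 16, and 10 at the common limit and 8 at equal length, both chosen after seeing the data. The sets also changed in size, to 2020 and 4319 regions at the common limit and to 1102 and 1272 at equal length. Some shares met or changed order at the common limit, as for GGGCGG (4.16% against 4.21%) and the CTCF core (1.98% against 2.73%), both with overlapping intervals. What part sampling error has in these changes was not tested. Of the 19 motifs, 12 kept the sign of that difference in all 5 settings. All 9 gene lists were above the share of all genes at 100 kb, and 8 at 50 kb, 6 at the common limit and 4 at equal length, where Cux2-only early regions lay near 12.1% of all genes.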
